A study of Caenorhabditis elegans with 6 samples.

Results

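The membrane-embedded Vo sector of the vacuolar ATPase was described through 10 genes: the 4 genes for subunit a (unc-32, vha-5, vha-6 and vha-7), the 3 for the c ring proteolipid (vha-1, vha-2 and vha-3), and 1 each for c'' (vha-4), d (vha-16) and e (vha-17). The members were chosen by gene name from the 22416 genes with deposited counts, and all 10 were found and passed the filter on low counts. Genes of the pump were taken up because they were already known to lie higher, as a list, in gtr-1 RNAi-labelled libraries than in the empty vector libraries. Treatment values of the members are therefore a description of these libraries and were not used as a test.

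The vacuolar ATPase is a rotary pump. Its cytosolic V1 sector hydrolyses ATP and turns the ring of c and c'' subunits of Vo against subunit a, which carries protons through the membrane, so that lysosomes, secretory vesicles and the lumen facing some epithelia become acidic. Subunit a exists in several forms that place the pump in different membranes. In C. elegans, vha-6 is known from the apical membrane of the intestine, vha-5 from the excretory canal and the hypodermis, vha-7 from the hypodermis and the uterus, and unc-32 was named for the uncoordinated movement of its mutants and acts in the nervous system among other tissues. Subunit d couples the ring to the central stalk, and e is a small membrane subunit.

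Poly(A) RNA came from pools of whole worms of strain CL2006, which carries the pCL12 transgene (a human amyloid beta 1-42 minigene under the body wall muscle promoter of unc-54) and the marker plasmid pRF4. Controls carried the same transgenes. Worms of the second generation, grown at 20 °C, were taken as adults of day 6 after both generations had fed on HT115 bacteria with an empty vector (EV) or with an RNAi construct aimed at the 3'UTR of gtr-1, which encodes a G protein-coupled receptor of neurons. Each treatment had 3 libraries, 1 in each of batches 2, 3 and 4, with total counts of 43067539 to 59812227 per library. The labels give the batch numbers without saying what a batch shared, so p-values measure only the spread between these pairs, which may be technical. The target gtr-1 had 32, 16 and 12 counts with EV and 38, 26 and 11 counts in gtr-1 RNAi-labelled libraries (batches 2, 3 and 4). Its log2 fold change was 0.13 with a 95% interval from -0.64 to 0.89. The counts of the target overlapped between the groups, so each direction below rests on the label. All listed markers of intestine, excretory canal, hypodermis, neurons, germline and body wall muscle were counted in every library, the lowest at 7 counts.

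The Vo genes are spread over 4 autosomes in WBcel235 coordinates. vha-6 (WBGene00006915) lies on chromosome II from 11435210 to 11438452, and vha-4 (WBGene00006913) on chromosome II from 7878082 to 7879316. unc-32 (WBGene00006768) lies on chromosome III from 8905615 to 8911756. vha-5 (WBGene00006914) spans 8303968 to 8307371, vha-7 (WBGene00006916) 12640462 to 12650652 and vha-17 (WBGene00009882) 9321801 to 9322525 on chromosome IV. vha-16 (WBGene00016258) lies on chromosome I from 5079910 to 5082279. The 3 c genes sit next to other pump genes. vha-1 (WBGene00006910, chromosome III, 9781254 to 9781763) is followed on the same strand, 401 bases on, by vha-2 (WBGene00006911, 9782164 to 9783224). vha-3 (WBGene00006912, chromosome IV, 2315460 to 2315945) lies 893 bases from vha-11, which encodes subunit C of V1. The annotation gives vha-7 25 exon blocks and vha-1 and vha-3 1 each.

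Some counts are less certain for reasons of position or sequence. vha-2 and vha-3 encode the same protein, and reads from stretches that the transcripts share could have been dropped or assigned to either gene. Exons of vha-2 also overlap those of R10E11.6 on the same strand over 219 bases. Overlaps on the opposite strand were 57 bases for vha-5, 37 for vha-17 and 38 for unc-32, and the sources used here do not say whether counting used the strand.

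Levels were compared between genes as CPM, the count scaled to library size with TMM factors, per kilobase (kb) of annotated exon. With EV, the c proteolipid vha-2 had the highest level of the 10 genes, 387 ± 24.7 CPM per kb (SD, n = 3). vha-1 followed at 183 ± 6.62, and vha-3 at 156 ± 18.05 CPM per kb. The e subunit vha-17 stood at 149.6 ± 4.81, the d subunit vha-16 at 149.5 ± 7.71 and the c'' subunit vha-4 at 122 ± 10.3 CPM per kb. The 4 a subunit genes were the lowest, with vha-6 at 69.3 ± 5.05, unc-32 at 65.5 ± 3.66, vha-7 at 41.7 ± 9.46 and vha-5 at 27.2 ± 4.79 CPM per kb. Ranges over the EV libraries overlapped between vha-3 and vha-17, between vha-17 and vha-16, and between vha-6 and unc-32, so the order within these neighbours does not exceed their spread; every other pair of neighbours in the order was separate. In gtr-1 RNAi-labelled libraries vha-16 (162 ± 10.7) stood above vha-17 (152 ± 7.31 CPM per kb) and the rest of the order was the same. There the overlaps lay between vha-1 and vha-3, vha-3 and vha-16, vha-16 and vha-17, and vha-7 and vha-5, while vha-6 (111 ± 16.8) was separate from unc-32 (65.3 ± 5.50 CPM per kb). Counts behind these levels ran from 3068 for vha-5 to 23783 for vha-2 over the 6 libraries.

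**Figure D1:**
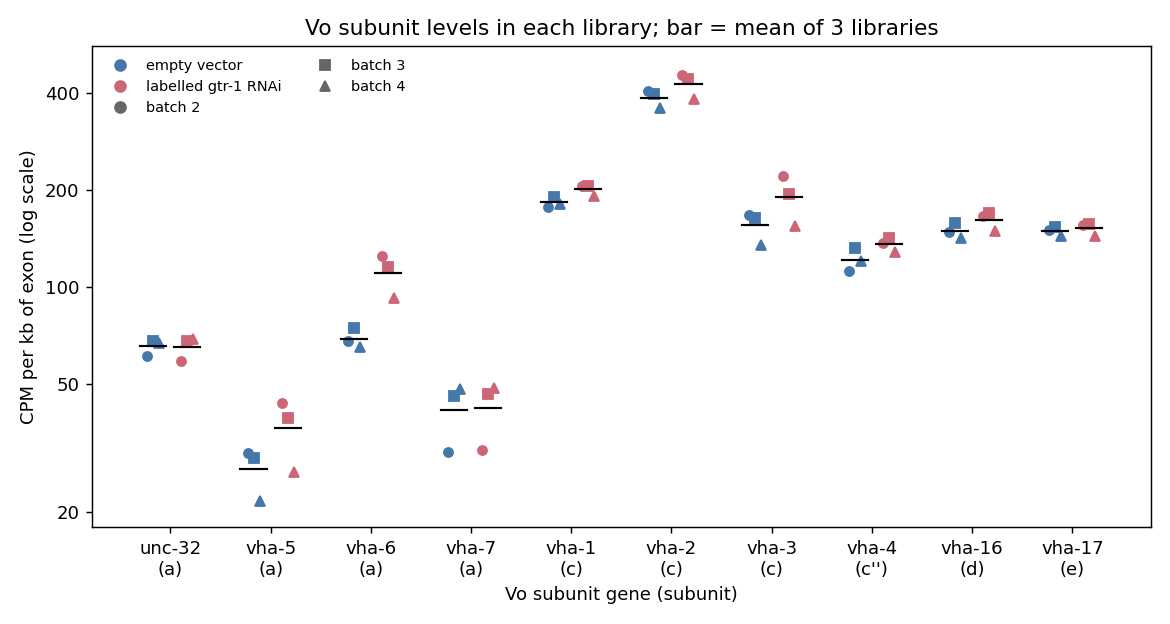
Level of each Vo gene in CPM per kb of exon on a log scale, in each of the 6 libraries; colour marks the treatment, the marker shape the batch and the bar the mean of 3 libraries. The 3 c genes lie above the 4 a genes, vha-6 is separate between treatments (at most 74.8 with EV and at least 92.2 CPM per kb in gtr-1 RNAi-labelled libraries), and batch 2 is the low point of vha-7 in both treatments.

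The ring genes stood in close proportions across libraries. Of the summed level of the 3 c genes, vha-2 made up 53.3 ± 0.65% with EV, vha-1 25.3 ± 1.62% and vha-3 21.4 ± 1.25% (SD, n = 3). The summed c level was 5.99 ± 0.62 times that of c'' with EV and 6.02 ± 0.40 times in gtr-1 RNAi-labelled libraries. vha-2 stood 2.12 ± 0.16 times above its neighbour vha-1 with EV and 2.12 ± 0.12 times in gtr-1 RNAi-labelled libraries. These ratios differed between treatments by less than their spread between libraries. The share of vha-2 was 52.8% to 54.05% with EV and 51.7% to 52.5% in gtr-1 RNAi-labelled libraries, a small gap without overlap.

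Among the a subunits, the intestinal form vha-6 had the widest difference between treatments. Its level was 68.0, 74.8 and 65.0 CPM per kb with EV in batches 2, 3 and 4, and 125, 116 and 92.2 CPM per kb in gtr-1 RNAi-labelled libraries. Every library of the gtr-1 RNAi label lay above every EV library. The log2 fold change of vha-6 was 0.67 ± 0.08 (SE), or 1.59-fold, with a 95% interval from 0.48 to 0.86. Within batches 2, 3 and 4 the log2 difference was 0.88, 0.63 and 0.51. Of all genes tested, 3.38% had a higher log2 fold change.

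The excretory and hypodermal form vha-5 came next. Its level was 30.6, 29.4 and 21.8 CPM per kb with EV and 43.7, 39.1 and 26.7 in gtr-1 RNAi-labelled libraries. The groups overlapped because batch 4 was the lowest in both treatments, but the gtr-1 RNAi-labelled library was above its EV partner in every batch. The log2 fold change of vha-5 was 0.41 ± 0.05 (SE), or 1.33-fold, with a 95% interval from 0.28 to 0.54. By batch it was 0.51, 0.41 and 0.30.

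The other a forms, unc-32 and vha-7, had log2 fold changes close to 0. unc-32 was at 61.3, 68.1 and 67.1 CPM per kb with EV and at 59.0, 67.8 and 69.0 in gtr-1 RNAi-labelled libraries. Its log2 fold change was -0.01 ± 0.04 (SE) with a 95% interval from -0.10 to 0.09, and its sign turned under other filters, in the authors' batch-corrected values and without some libraries. vha-7 was at 30.9, 46.0 and 48.3 CPM per kb with EV and at 31.2, 46.5 and 48.8 in gtr-1 RNAi-labelled libraries. Its log2 fold change was 0.02 ± 0.03 (SE), with a 95% interval from -0.06 to 0.10. For these genes, then, the interval left room for a log2 change of at most about 0.10 in either direction.

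The make-up of the a subunit transcripts differed between the treatments. vha-6 made up 35.7%, 34.3% and 32.2% of the summed a level with EV in batches 2, 3 and 4, and 48.3%, 43.0% and 39.0% in gtr-1 RNAi-labelled libraries. The share of unc-32 was 32.1%, 31.2% and 33.2% with EV and 22.8%, 25.2% and 29.2% in gtr-1 RNAi-labelled libraries. Neither of these shares overlapped between the groups, and each pair differed in the same direction. The share of vha-5 was 13.4 ± 2.63% with EV and 14.2 ± 2.81% in gtr-1 RNAi-labelled libraries (SD, n = 3), a difference within the spread. That of vha-7 was 20.4 ± 3.90% and 16.7 ± 4.30%. Set against unc-32, vha-6 stood at 1.11, 1.10 and 0.97 times its level with EV, and at 2.12, 1.70 and 1.34 times in gtr-1 RNAi-labelled libraries. The summed level of the 4 a genes was 204 ± 13.9 CPM per kb with EV and 255 ± 16.6 in gtr-1 RNAi-labelled libraries (SD, n = 3), with no overlap. Relative to the d subunit vha-16, that sum stood at 1.29, 1.38 and 1.42 times with EV and at 1.56, 1.58 and 1.58 times in gtr-1 RNAi-labelled libraries.

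**Figure D2:**
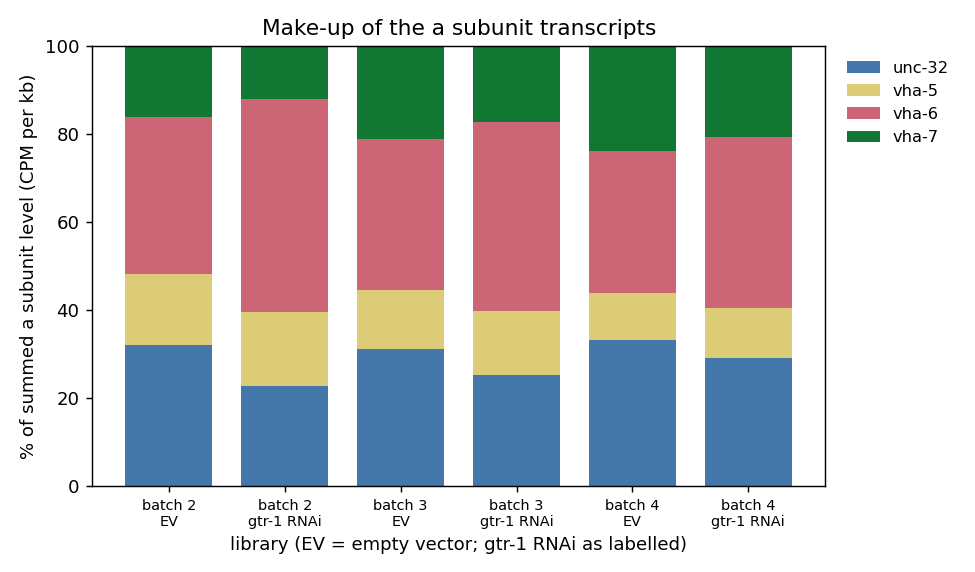
Share of unc-32, vha-5, vha-6 and vha-7 in their summed level (CPM per kb, in percent) for each library, in pairs by batch; bars add up to 100%. The segment of vha-6 is larger in the gtr-1 RNAi-labelled library of each pair, from 34.0% to 43.4% on average. That of unc-32 is smaller, from 32.2% to 25.7%, while its mean level was 65.5 CPM per kb with EV and 65.3 in gtr-1 RNAi-labelled libraries.

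Of the ring genes, vha-3 differed most. Its level was 168, 164 and 135 CPM per kb with EV and 221, 195 and 154 in gtr-1 RNAi-labelled libraries. As for vha-5, batch 4 was low in both treatments and the groups overlapped, while each pair differed in the same direction. The log2 fold change of vha-3 was 0.28 ± 0.05 (SE; 95% interval 0.15 to 0.41), and by batch it was 0.40, 0.25 and 0.19. vha-2, which encodes the same protein, had 0.14 ± 0.04 (0.04 to 0.23), vha-1 0.14 ± 0.04 (0.03 to 0.24) and the c'' gene vha-4 0.16 ± 0.05 (log2 fold change, SE; 0.03 to 0.29). vha-1 had no overlap between groups, 178 to 190 CPM per kb with EV and 192 to 206 in gtr-1 RNAi-labelled libraries. The vha-3 share of the c level was 22.3%, 21.9% and 20.0% with EV and 25.1%, 23.1% and 21.1% in gtr-1 RNAi-labelled libraries, higher within each pair but overlapping between groups.

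The d and e genes were the flattest outside the a family. vha-16 had a log2 fold change of 0.11 ± 0.04 (SE; 95% interval 0.02 to 0.20). vha-17 had 0.03 ± 0.04 (-0.07 to 0.12), and its levels of 144 to 154 CPM per kb with EV and 144 to 157 in gtr-1 RNAi-labelled libraries covered the same range.

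In counts, 0 of the 10 Vo genes passed edgeR's quasi-likelihood test over all genes tested, at an adjusted p under 0.05, beside 0.0902% of all 15519 genes. At an unadjusted p under 0.05 edgeR had 7 members higher and 0 lower (4.99% of all genes were higher). DESeq2 called vha-6, vha-5 and vha-3 higher (1.57% of all genes). In 8 of 10 members the gtr-1 RNAi-labelled library was above its EV partner in all 3 pairs (13.5% of all genes), the exceptions being unc-32 and vha-17. The groups had no overlap for vha-6 and vha-1 (2.92% of all genes). The median log2 fold change of the 10 was 0.14, beside -0.03 over all genes tested; within the pairs it was 0.19, 0.11 and 0.09 in batches 2, 3 and 4. As the pump genes were chosen on this contrast, nothing is read from these counts. Calls for the members appeared in edgeR too, for vha-6, vha-5 and vha-3 when the pair of batch 2, or its EV or RNAi library, was left out, and for vha-6 and vha-5 without the batch 3 pair. Calls over all genes were also more numerous in those fits. Without the batch 2 pair 745 genes were higher and 420 lower of 15147, without its EV library 679 and 340, without its RNAi library 561 and 249, and without the batch 3 pair 170 and 81. In the authors' batch-corrected values, 7 of the 10 genes had no overlap between groups (12% of all genes), namely vha-5, vha-6, vha-1, vha-2, vha-3, vha-4 and vha-16. There vha-6 ran from 9591 to 10016 with EV and from 13607 to 14381 in gtr-1 RNAi-labelled libraries, and the sources used here do not name the method of correction.

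**Figure D3:**
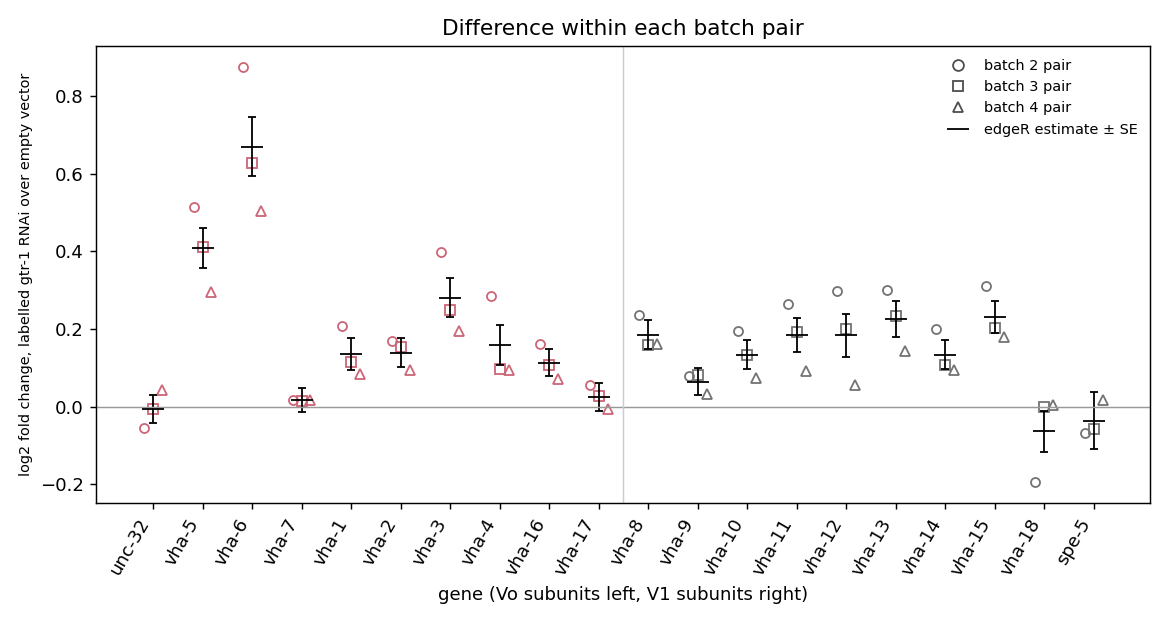
Log2 fold change (libraries labelled gtr-1 RNAi over EV) of the 10 Vo genes on the left and 10 V1 genes on the right; open markers are the 3 batch pairs and the black mark is the edgeR estimate with its SE. vha-6 and vha-5 lie above the other Vo genes and above every V1 gene, whose highest estimate is 0.23.

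The cytosolic V1 sector gave the nearest comparison. Of the 10 V1 genes, 0 passed edgeR over all genes tested. At an unadjusted p under 0.05 edgeR had 7 higher, 0 lower (4.99% of all genes were higher). DESeq2 called 2 of them higher, vha-13 and vha-15 (1.57% of all genes). Their median log2 fold change was 0.16, with a range from -0.06 to 0.23, where the Vo genes ran from -0.01 to 0.67. The catalytic A subunit vha-13 reached a log2 fold change of 0.23 ± 0.05 (SE), and the B subunit vha-12 stood at 0.18 ± 0.06. In the stalks, vha-8 (E) had 0.19 ± 0.04, vha-10 (G) 0.13 ± 0.04, vha-11 (C) 0.18 ± 0.04, vha-14 (D) 0.13 ± 0.04 and vha-9 (F) 0.06 ± 0.03 (log2 fold change, SE). The H subunit has 2 genes, and these were unlike: vha-15 had 0.23 ± 0.04 and vha-18 -0.06 ± 0.05 (log2 fold change, SE). spe-5, a B subunit paralogue that acts in sperm formation, had -0.04 ± 0.07. The accessory subunits vha-19 and vha-20 had 0.14 ± 0.04 and 0.19 ± 0.04 (log2 fold change, SE), 0 of 2 past the test.

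Tissue markers were measured beside the tissue-biased forms, since fewer cells of a type and less RNA per cell cannot be told apart in whole worms. The summed level of 13 intestine markers was 1160 to 2047 CPM with EV and 1603 to 2482 CPM in gtr-1 RNAi-labelled libraries. Their median log2 fold change was 0.20, and 11 of 13 were above 0, beside 6461 of all 15519 genes tested. The intestine list holds elt-2, nhx-2 and pept-1, which are also given below. In edgeR 0 of the 13 passed and DESeq2 called 2 higher (1.57% of all genes). By batch that median was 0.00088, 0.36 and 0.20. DESeq2's calls were asp-1, an aspartic protease, and act-5, the brush border actin. asp-1 supplied most of the summed level, with a mean of 942 CPM under EV, and had a log2 fold change of 0.58 ± 0.08 (SE), by batch 0.39, 0.78 and 0.57. The intermediate filament gene ifb-2 was the highest of the list at 0.59 ± 0.24 (by batch -0.15, 1.03 and 0.91), and act-5 stood at 0.25 ± 0.04. In batches 3 and 4 the log2 differences of asp-1 and ifb-2 were thus wider than those of vha-6, and in batch 2 they were narrower. The lowest of the list were glo-1 (-0.13 ± 0.17) and elt-7 (-0.11 ± 0.15; log2 fold change, SE). The 10 excretory canal markers summed to 145 to 179 CPM with EV and 160 to 194 CPM in gtr-1 RNAi-labelled libraries, with a median log2 fold change of 0.04 and 6 of 10 above 0. The intermediate filament gene ifa-4 was the highest of them, at 0.52 ± 0.06 (log2 fold change, SE). The lowest were twk-36 (-0.15 ± 0.41) and exc-5 (-0.15 ± 0.12). In edgeR 0 of the 10 passed, and DESeq2 called only ifa-4 higher (1.57% of all genes). By batch the median of the excretory canal list was 0.02, 0.23 and -0.08. The 10 hypodermis markers summed to 286 to 322 and 275 to 318 CPM, with a median log2 fold change of 0.12 (by batch -0.15, 0.22 and 0.19). The 14 neuron markers, given beside unc-32, summed to 428 to 525 CPM with EV and 403 to 558 CPM in gtr-1 RNAi-labelled libraries. Their median log2 fold change was 0.01 (by batch -0.18, 0.30 and -0.17). The 10 germline markers had a median log2 fold change of -0.04, and 10 of 10 were below 0. The 10 body wall muscle markers had a median of -0.18 (by batch -0.11, 0.09 and -0.40), and 8 of 10 were below 0. Of all 15519 genes, 9058 were below 0. DESeq2 called 1 muscle marker lower (96 of all genes), and 2 were lower with no overlap between groups (477 of all genes). None of these marker lists had a member at 0 counts in any library. The part of these tissues in the differences of vha-6 and vha-5 was not tested.

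Transcripts for regulators and partners of the pump were described from further lists. nhr-31, a nuclear receptor needed for pump gene expression in the excretory cell, had a log2 fold change of 0.34 ± 0.08 (SE). It was higher in every pair (13.5% of all genes). hlh-30, the worm TFEB homologue that drives lysosome genes, had 0.05 ± 0.10, the intestinal GATA factor elt-2 0.16 ± 0.15, mxl-3, which opposes hlh-30, 0.24 ± 0.13, and ceh-6, a POU factor of the excretory cell, 0.07 ± 0.31 (log2 fold change, SE). In edgeR 0 of these 5 passed, with 1 higher at an unadjusted p under 0.05 (4.99% of all genes) and 0 called by DESeq2. Of 9 genes for lysosomal signalling through Ragulator, Rag GTPases and TORC1, 0 passed in either direction in edgeR or DESeq2, and 0 did at an unadjusted p under 0.05. They ran from lmtr-3 (-0.11 ± 0.06) and rsks-1 (-0.06 ± 0.04) to daf-15 (0.03 ± 0.04) and flcn-1 (0.09 ± 0.04; log2 fold change, SE).

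Other lysosome membrane genes were described beside the pump. Of 9 tested, 0 passed in edgeR or DESeq2. At an unadjusted p under 0.05 edgeR had 2 lower and 0 higher, beside 882 lower and 775 higher of all 15519 genes. The lowest were scav-3 (-0.14 ± 0.04), a LIMP-2 homologue, and the cystinosin ctns-1 (-0.11 ± 0.03), and the highest were lmp-2 (0.50 ± 0.21) and lmp-1 (0.06 ± 0.06; log2 fold change, SE). lmp-2 was higher in every pair, by 0.24, 0.93 and 0.32 on the log2 scale in batches 2, 3 and 4. Of 5 transport partners found, 0 passed in edgeR or DESeq2 and 1 was higher at an unadjusted p under 0.05 (4.99% of all genes). nhx-2, an intestinal sodium-proton exchanger, had 0.34 ± 0.08 and pept-1, the intestinal proton-coupled peptide transporter, 0.30 ± 0.19, while the chloride channel clh-4 had -0.29 ± 0.17 and the carbonic anhydrase cah-4 -0.00 ± 0.07 (log2 fold change, SE).

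Differences between batches were not used in choosing the genes and were tested. Of the 10 Vo genes, 5 passed edgeR's test of the batch terms over all genes (vha-7, vha-5, vha-3, vha-2 and unc-32), beside 43.3% of all genes, so the share of members is near the background. vha-7 had the widest span, being higher by 0.58 in batch 3 and 0.64 in batch 4 than in batch 2 (log2; edgeR adjusted p = 0.00399). Its mean level over both treatments was 31.1 CPM per kb in batch 2, 46.3 in batch 3 and 48.5 in batch 4. vha-5 went the other way, with 37.1, 34.3 and 24.2 CPM per kb in batches 2, 3 and 4 and a log2 difference of -0.60 between batch 4 and batch 2 (edgeR adjusted p = 0.005). vha-3 was lower by 0.42 on the log2 scale in batch 4 than in batch 2 (edgeR adjusted p = 0.0124) and vha-2 by 0.21 (0.0307). unc-32 was higher by 0.18 in batches 3 and 4 (0.0388). The remaining members, vha-6, vha-1, vha-4, vha-16 and vha-17, did not pass; vha-6 was 0.25 lower in batch 4 than in batch 2 (log2; edgeR adjusted p = 0.104).

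**Figure D4:**
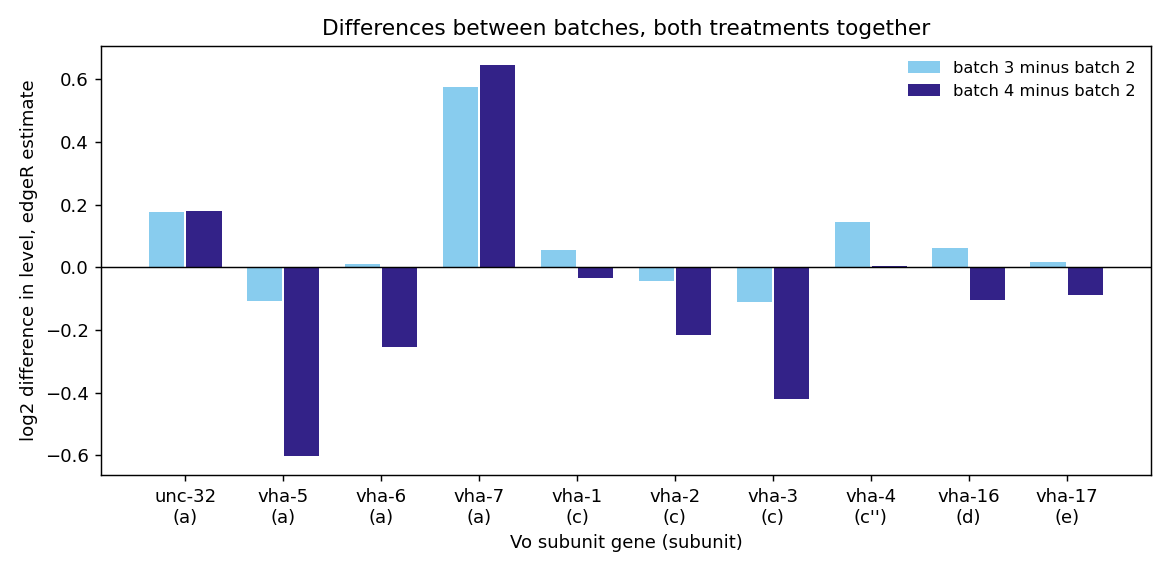
Log2 difference of batch 3 and of batch 4 from batch 2 for each Vo gene, both treatments together (edgeR estimates). vha-7 stands 0.58 and 0.64 above batch 2, and vha-5 stands 0.60 below it in batch 4.

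These calls depended on which libraries were kept. Among 14 alternative fits, vha-7 kept its batch call in 13, all but the fit without the batch 2 pair, and vha-5 in 13, all but the fit without the batch 4 pair. Without the batch 2 pair 356 of 15147 genes were called by batch, against 6721 of 15519 with all libraries, and without the batch 4 pair 4633 of 16134. vha-6 was called by batch in 3 of the 14 fits, those without the batch 2 pair or 1 of its libraries. The call of vha-3 held in 10, that of unc-32 in 6 and that of vha-2 in 4. Germline markers moved with batch in the same direction as vha-7: 10 of 10 were higher in batches 3 and 4 than in batch 2, by a median of 0.49 and 0.61 on the log2 scale, and their summed level was 3362 to 3712 CPM in batch 2 and 5091 to 5423 CPM in batches 3 and 4. Intestine markers moved the other way, 12 of 13 being lower in both. This was not particular to intestine. Of the excretory canal markers 8 of 10 were lower in both and 1 higher, by a median of -0.49 and -0.65. Among neuron markers 11 of 14 were lower in both and 2 higher (-0.28 and -0.71). For body wall muscle 7 of 10 were lower in both and 1 higher (-0.15 and -0.47 on the log2 scale). Of all 15519 genes tested, 6065 were higher in both batches than in batch 2 and 8082 were lower in both. Among V1 genes, vha-18 (0.46 and 0.55) and spe-5 (0.48 and 0.61) were higher in batches 3 and 4 than in batch 2 on the log2 scale, like vha-7. The 9 lysosomal signalling genes were also all higher in both batches, by a median of 0.32 and 0.35 on the log2 scale. Of the 10 hypodermis markers, lin-26 (0.45 and 0.45) and nhr-23 (0.56 and 0.65) were higher in both, and 7 were lower in both. The part of tissue make-up in the batch differences was not tested.

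The genes most like each a subunit were listed by the root mean square distance between log2 CPM profiles over the 6 libraries, each centred on its own mean. Closest to vha-6 were T25C12.3 (0.07), ttr-32 (0.08), sdz-8 (0.08), cpr-8 (0.09) and semo-1 (0.10). Closest to vha-5 were ttr-18 (0.05), the cathepsin Z gene cpz-1 (0.06), aass-1 (0.07), sptl-2 (0.07) and aex-2 (0.08). Of the other pump genes, vha-3 ranked 22nd nearest to vha-5 among the tested genes and vha-15 152nd, while vha-5 ranked 153rd nearest to vha-6 and vha-3 184th. Closest to vha-7 were Y47G6A.14 (0.01), dgk-4 (0.01), Y56A3A.22 (0.01), swah-1 (0.02) and F58G11.3 (0.02), and closest to unc-32 were gei-8 (0.01), lin-66, emc-2, yif-1 and eor-2 (each 0.02). spe-5 was the pump gene nearest to vha-7, at rank 259, whereas vha-5 and vha-6 stood at ranks 9625 and 8824. The distances mix treatment and batch, are small for genes that vary little, and cover 6 libraries.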

How the data were processed

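Whole-worm RNA was sequenced from 6 stranded mRNA libraries (KAPA kit), per the labels' protocols. Reads were handled with TopHat2 2.1.1, cutadapt 2.10, DESeq2 1.36.0 and HTSeq 2.01 on WBcel235, per the submitters' processing notes, which give no settings here. The authors' deposited table gives whole-number counts per gene for 22416 of 46934 rows. It also gives a normalized signal, which the authors deposited as counts over 1 size factor per library, and a batch-corrected form of it, a deposited score with 43 values below 0.

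Groups came from titles. Counts were tested with edgeR 4.0.16 (R 4.3.3): 15519 genes passed filterByExpr (minimum count 10), followed by TMM, glmQLFit and glmQLFTest with a batch block (residual degrees of freedom 2) and Benjamini-Hochberg adjustment, called under 0.05. SE is the log2 fold change divided by the root of F. Within-pair log2 differences use log2 CPM with a prior count of 2. Exon lengths and coordinates are from Ensembl release 115 of WBcel235. Alternatives were DESeq2 1.42.0, its size factors, other filters, robust dispersion, no batch block, an adjusted p under 0.1 and leaving out libraries or pairs; limma 3.58.1 on log2 of the batch-corrected values plus 1 was added after seeing the data. Members, lists and tests were chosen with earlier results of these data known. All members and all V1, accessory and regulator genes are named, and of the lysosomal and transport lists the 2 highest and 2 lowest. Tissue markers are given as lists, and the intestine and excretory canal markers named were picked after their values were seen. nhx-7 had no row under that name. The scripts were tested on simulated counts.

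The batch labels pair the libraries. Across genes, deviations from the group mean correlated at r = 0.71, 0.47 and 0.66 within batches 2, 3 and 4, and at -0.71 to 0.52 between batches. The highest value between batches thus exceeded that within batch 3. Within a group, chi-square values per degree of freedom were 22.5 to 133, so no library was a copy of another.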

Additional observations from a re-analysis of the deposited data

How the results depend on the processing

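The number of Vo genes called between treatments was 0 in edgeR, but 2 with an adjusted p under 0.1, 2 with no filter on low counts, 2 with DESeq2 size factors and 3 in the DESeq2 test; leaving out a library or a batch pair gave 0 to 3. Calls over all genes moved as well, from 14 higher and 0 lower to 123 and 42 with no filter, 132 and 69 with DESeq2 size factors and 244 and 96 in the DESeq2 test, and from 0 in either direction without the batch 4 pair to 745 and 420 without the batch 2 pair. The V1 genes gave 0 in edgeR, 2 in DESeq2 and 0 to 2 on leaving out. Their median log2 fold change ran from 0.12 to 0.22 on leaving out. The median of the Vo genes, 0.14, ran from 0.10 to 0.20 on leaving out and was highest without the batch 3 EV library, where the median of all genes was 0.01 rather than -0.03. The number of Vo genes called between batches was 5, 3 with DESeq2 size factors, and 1 to 7 on leaving out; over all genes it was 6721, 6983 with DESeq2 size factors, and 356 (without the batch 2 pair) to 8036 (without the batch 3 pair) on leaving out. Without the replicate block, 0 Vo genes were called and their median was 0.14; the block changed no call of a Vo gene, while over all genes edgeR called 14 with it and 1 without it. Over 16 alternatives, vha-6 had log2 fold changes of 0.51 to 0.75 and vha-5 of 0.32 to 0.47, both above 0 in each. The sign of unc-32 turned with no filter (0.0063), a minimum count of 50 (0.024) and the batch-corrected values (0.0011), and ran from -0.032 to 0.055 on leaving out; the causes were not tested. The order of levels changed with the exon length used: with the longest transcript, unc-32 (72.7 CPM per kb) stood above vha-6 with EV.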
